A study of Mus musculus with 16 samples.

Results

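The genes described here encode the proteins of the cytosolic ribosome: 61 genes of the 19935 that could be tested, 23 of the small subunit (Rps genes and Rpsa) and 38 of the large subunit (Rpl genes and the stalk genes Rplp0, Rplp1 and Rplp2). They were chosen by symbol among probe sets that carry exactly 1 gene symbol, with pseudogenes and the Rps6k kinases left out, and 216 probe sets qualified. Where a gene had several, the one with the highest mean signal over all arrays stood for it. By symbol, 55 are canonical ribosomal proteins and 6 are paralogs, that is, second copies of a ribosomal protein gene: Rpl3l, Rpl7l1, Rpl10l, Rpl39l, Rps4l and Rps27l. Rpl32l was counted among the canonical genes, although its symbol resembles those of the paralogs. Rps4l is annotated as a transcribed pseudogene in RefSeq, and the other 60 as protein coding. Another 18 ribosomal protein symbols, among them Rpl3, Rpl11, Rpl32, Rps16 and Rps24, occur only on probe sets that carry several symbols and have no values of their own here.

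The RNA came from the hippocampus of 3-month-old females, F2 animals of C57BL/6J and DBA, and each of 16 Affymetrix Mouse Gene 1.0 ST arrays read equal amounts of RNA pooled from 4 animals. The mice were either cbp+/-, heterozygous for a deficiency of CBP (the histone acetyltransferase encoded by Crebbp), or their wild-type littermates. Housing was a standard cage (5 arrays per genotype) or, for 2 weeks, an enriched environment, a large box with running wheels, tubing and toys (3 arrays per genotype). The design asks what enrichment does in each genotype and whether CBP deficiency alters it. Arrays are named by genotype (WT or CBP, as labelled), housing (SC, standard cage, or EE, enrichment) and the replicate number of the label, as in WT_EE_3. The labels call the pools independent biological replicates, and do not say whether arrays of the same number were processed together.

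Ribosomal proteins assemble with ribosomal RNA into the small subunit, which decodes the messenger RNA, and the large subunit, which joins the amino acids. Their messenger RNAs are abundant in every cell type, and many begin with a terminal oligopyrimidine tract, a C followed by a run of pyrimidines, through which the mTOR pathway and the RNA-binding protein Larp1 control their translation. In neurons ribosomal protein messenger RNAs are also found in dendrites and axons, where local synthesis takes part in plasticity.

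The start sites of 7 members illustrate motifs that part of the family carries and that the choice of members did not use. The windows run from 30 bases before to 20 bases after the start, 5′ to 3′ on the gene's own strand, from RefSeq on GRCm38.p6. Capitals mark the terminal oligopyrimidine tract and, in Rpl38 and Rpl26, the motif CCGGAAG, the core bound by ETS factors such as GABP. Rps6 and Rps18 are shown for their clear tracts, and Rpl28 and Rpl38 as large-subunit examples. Rps2, Rps19 and Rpl26 had some of the largest wild-type housing differences in relation to their errors, though none was significant after adjustment for multiple testing.

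Rps6 (chr4:86857348-86857397, minus strand): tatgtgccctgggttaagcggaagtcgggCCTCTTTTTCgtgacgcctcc
Rps18 (chr17:33955646-33955695, minus strand): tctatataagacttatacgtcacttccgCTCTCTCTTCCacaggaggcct
Rpl28 (chr7:4792935-4792984, plus strand): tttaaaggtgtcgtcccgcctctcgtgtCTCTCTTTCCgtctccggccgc
Rpl38 (chr11:114668550-114668599, plus strand): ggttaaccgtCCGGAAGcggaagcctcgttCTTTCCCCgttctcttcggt
Rps2 (chr17:24720033-24720082, plus strand): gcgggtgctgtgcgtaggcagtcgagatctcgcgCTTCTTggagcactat
Rps19, the third listed start (chr7:24884883-24884932, plus strand): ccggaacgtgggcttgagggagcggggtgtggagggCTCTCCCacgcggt
Rpl26 (chr11:68901536-68901585, plus strand): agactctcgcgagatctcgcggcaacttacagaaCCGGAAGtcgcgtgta

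Of the 61 members, 49 had an entry in the promoter table. A C followed by at least 5 pyrimidines, on the gene's own strand and beginning between 5 bases before and 10 after a listed start, occurred in 18 of the 49 (36.7%), against 16.1% of 27025 genes in the table and 8.70% of 69 matched genes of the mitochondrial ribosome. With the C and 5 pyrimidines wholly inside that window, a reading added after seeing the data, it was 16 members (32.7%) against 11.9% of all genes, and Rps12 and Rps19 no longer counted. CCGGAAG, searched on both strands of the 300 bases around the start, occurred in 19 of 49 members (38.8%), against 9.93% of all genes and 37.7% of the mitochondrial ribosome. GGGCGG, the box bound by Sp1, occurred in 29 members (59.2%) against 38.2% of all genes, AAGATGGC, the YY1 motif, in 3 (6.12%) against 3.19%, and TATAAA in 6 (12.2%) against 15.7%. Rpl26 had no tract at its listed start, and Rps19 had one at 1 of its 3 listed starts. Genes with several listed starts have more chances to hold a motif.

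Signals are log2 of the deposited intensity, so that a difference of 1 is a doubling. The members gave strong signals: 36 of 61 lay above the 90th percentile of all 21780 probe sets tested, 56 above the median and 5 below it (Rpl39l, Rpl3l, Rpl10l, Rps27l and Rpl12). Signals of different probe sets depend on the probes as well as on the transcript, so the members are not ranked by level. Markers of hippocampal neurons were bright, with Slc17a7 at 10.85 and Camk2a at 11.90 on average. Crebbp did not have a lower signal with the cbp+/- label: its difference from wild type was 0.14 (standard error, SE, 0.099) in standard cages and 0.098 (SE 0.13) in enrichment, and this whole-transcript signal does not check the genotype labels. Markers of the choroid plexus, a tissue next to the hippocampus, stood 1.37 above their usual level on CBP_SC_3 and between -0.18 and 0.15 on the other arrays. In pooled tissue, fewer cells of a type and less RNA per cell cannot be told apart.

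The ribosomal protein genes differed mainly between arrays of the same group, and they did so together. The level of the family on an array was taken as the median, over the 61 genes, of each gene's deviation from its own mean over the 16 arrays. It was -0.13, -0.081, -0.049, 0.11 and 0.21 on WT_SC_1 to WT_SC_5, and -0.15, -0.12, -0.038, 0.087 and 0.23 on CBP_SC_1 to CBP_SC_5. It was -0.22, -0.11 and 0.26 on WT_EE_1 to WT_EE_3, and -0.087, -0.090 and 0.20 on CBP_EE_1 to CBP_EE_3. The 4 groups overlapped throughout, while the wild-type and cbp+/- arrays of the same housing and number lay close to each other. The gap within the 8 such pairs had a median of 0.024 and was largest, 0.14, for the first enrichment pair, against a range of 0.49 over all arrays. On WT_SC_5, 57 of the 61 genes were above their own mean, and on CBP_SC_5, WT_EE_3 and CBP_EE_3 it was 55, 51 and 50 genes. On the arrays numbered 1 and 2 it was between 7 and 16 genes. Over all probe sets tested, the share above their own mean stayed between 37.3% and 59.2% on every array.

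**Figure D1:**
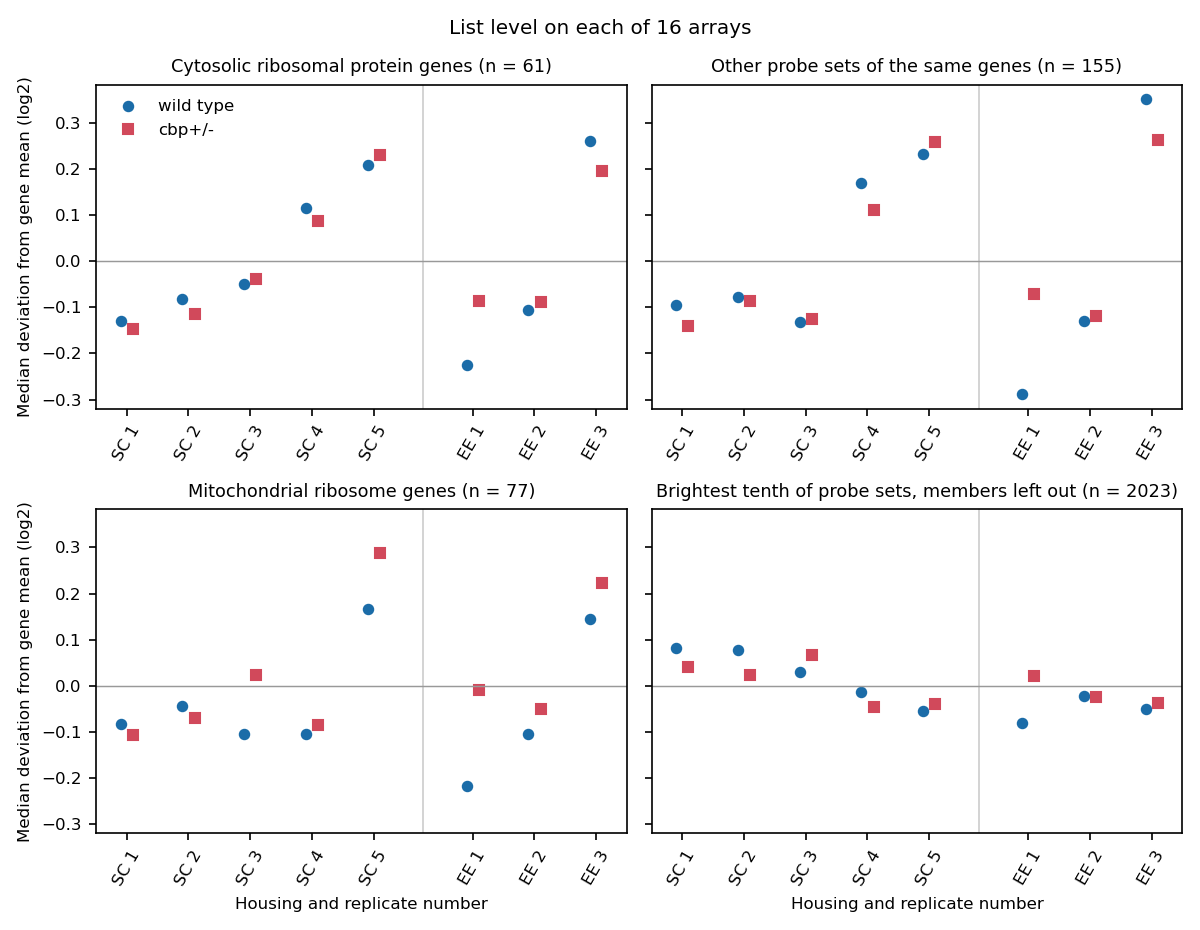
Level of 4 gene lists on each of the 16 arrays, as the median deviation of the list's probe sets from their own mean (log2, y axis), by housing and replicate number (x axis; SC, standard cage; EE, enrichment), with circles for wild type and squares for cbp+/-. The ribosomal protein genes and their other probe sets are highest on SC 5 and EE 3 in both genotypes, the mitochondrial ribosome genes are highest on the same arrays, and the other bright probe sets have a range of 0.16.

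Probe sets outside the chosen 61 showed the same pattern. Those with a ribosomal protein symbol may read the same transcripts or near-identical copies, so they are not separate measurements. The other 155 probe sets of the member genes ranged over 0.64, and the 239 several-symbol probe sets that include a ribosomal protein symbol ranged over 0.56, with WT_SC_5, CBP_SC_5, WT_EE_3 and CBP_EE_3 as their 4 highest arrays. The 77 genes of the mitochondrial ribosome, encoded in the nucleus like the cytosolic ones, ranged over 0.51 with the same 4 arrays highest. The level of 17 other ribosome and terminal oligopyrimidine genes ranged over 0.38, again with these 4 arrays highest. The other 2023 probe sets of the brightest 10% ranged over 0.16 and all probe sets tested over 0.071. A median over many unlike genes moves little, so these 2 small ranges are partly built in. Gene by gene, the median range was 0.69 for the rest of the brightest 10% and 0.80 for the members. Some cell type markers also differed on the 4 highest arrays and others did not. The 4 astrocyte markers were at -0.19 on WT_SC_5, -0.20 on CBP_SC_5, -0.31 on WT_EE_3 and -0.38 on CBP_EE_3, their 4 lowest arrays, and the 4 endothelial markers were below 0 on the same 4 and on both arrays numbered 3 in standard cages. The 7 neuronal markers lay at -0.10, -0.31, -0.019 and -0.27 there, but at -0.082 and -0.0076 on the other wild-type enrichment arrays. The 5 microglial markers lay at -0.028, 0.10, 0.078 and 0.033 on the same 4 arrays, and the 5 oligodendrocyte markers at 0.053, -0.034, -0.45 and -0.040. The part of cell composition, RNA quality or array processing in the shared level was not tested.

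Within the shared level the genes fell into groups with different arrays on top. In standard cages, the same replicate number was highest in both genotypes for 43 of 61 genes (70.5%), against 40.6% of all probe sets. Number 5 was highest for 23 genes (37.7%, against 10.7% of all probe sets), including Rpl10, Rpl38, Rpl41, Rps6, Rps18 and Rps29, number 4 for 16 (26.2%, against 7.26%), including Rps14, Rps4x, Rpl8, Rpl13, Rpl37a and Rps9, and number 3 for 4 genes, Rplp0, Rpsa, Rpl24 and Rps10. Those 4 are 6.56% of the members, below the 15.1% of all probe sets that were highest on number 3. Numbers 1 and 2 were highest in both genotypes for 0 genes, against 4.76% and 2.85% of all probe sets. In enrichment, number 3 was highest in both genotypes for 41 genes (67.2%), against 18.0% of all probe sets.

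**Figure D2:**
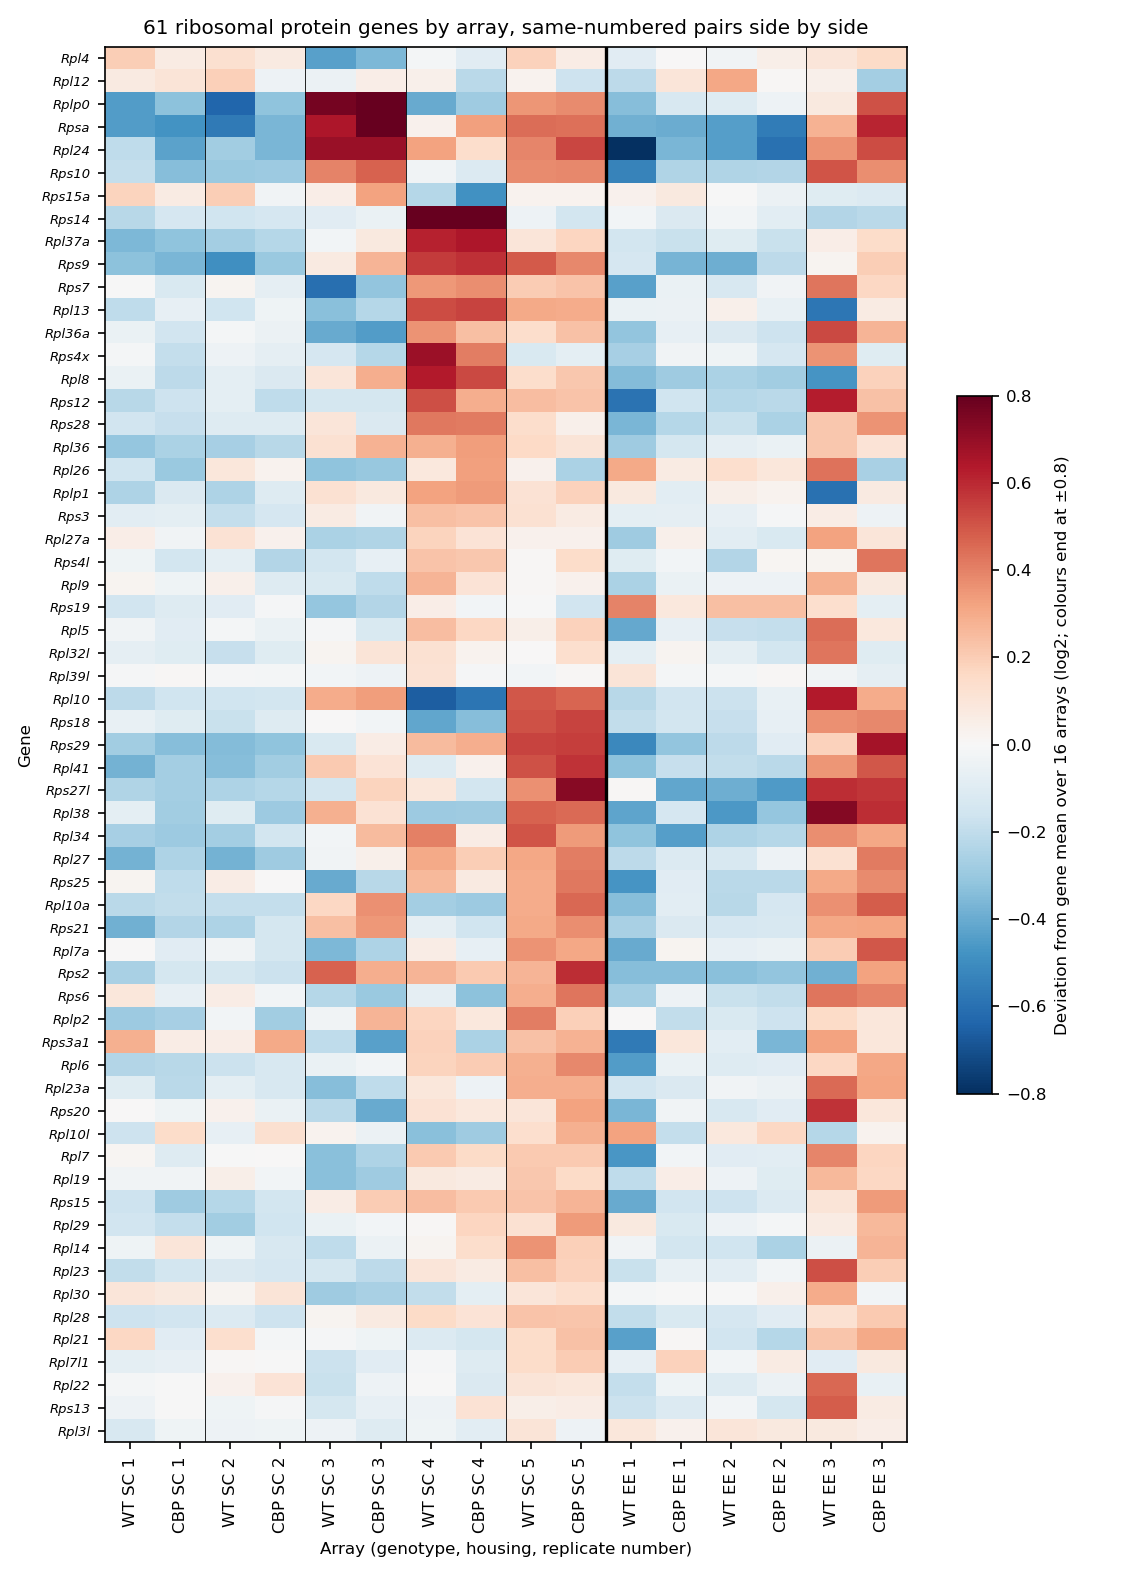
Deviation of each of the 61 genes (rows) from its own mean on each array (columns), in log2, from blue (below) to red (above), with the colours ending at 0.8 in both directions. Wild-type and cbp+/- arrays of the same housing and number stand side by side, a thick line separates standard cages from enrichment, and rows are grouped by the standard-cage number with the highest mean: Rps14 and Rps4x stand out on number 4, Rplp0, Rpsa and Rpl24 on number 3, and Rps18, Rpl10 and Rpl41 on number 5.

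Rps18, a protein of the small-subunit head, shows the number 5 pattern. Its signals were 10.88, 10.76, 10.95, 10.53 and 11.46 on WT_SC_1 to WT_SC_5 and 10.85, 10.84, 10.92, 10.61 and 11.48 on CBP_SC_1 to CBP_SC_5. In enrichment they were 10.75, 10.76 and 11.31 in wild type and 10.80, 10.88 and 11.33 in cbp+/-. Number 4 was lowest and number 5 highest in both genotypes. Rpl10, a large-subunit protein needed for joining the subunits, had the same order in both genotypes, with 10.94 on WT_SC_4 and 11.01 on CBP_SC_4 against 12.10 and 12.06 on the number 5 arrays.

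Rps14, which sits at the small subunit's platform, peaked on number 4 instead. Its signals were 9.74, 9.81, 9.87, 10.83 and 9.92 on WT_SC_1 to WT_SC_5 and 9.83, 9.83, 9.91, 10.77 and 9.81 on CBP_SC_1 to CBP_SC_5. In enrichment they lay between 9.73 and 9.94. Apart from the 2 number 4 arrays, all 14 arrays lay within 9.73 to 9.94. Rps4x, the X-linked small-subunit protein, was likewise highest on WT_SC_4 (9.91) and CBP_SC_4 (9.64), with the other standard-cage arrays at 9.21 or below.

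Rplp0, the base of the stalk that recruits elongation factors, peaked on number 3. Its signals were 9.34, 9.16, 10.56, 9.39 and 10.14 on WT_SC_1 to WT_SC_5 and 9.46, 9.47, 10.74, 9.50 and 10.17 on CBP_SC_1 to CBP_SC_5. In enrichment they were 9.45, 9.69 and 9.87 in wild type and 9.66, 9.75 and 10.30 in cbp+/-. Rpsa, a small-subunit protein that also serves as a laminin receptor, followed with 10.62 and 10.82 on the number 3 arrays against 9.41 to 9.61 on numbers 1 and 2. 
Rps6, whose phosphorylation by S6 kinase is a common readout of mTOR activity, gave 11.47, 11.44, 11.15, 11.31 and 11.67 on WT_SC_1 to WT_SC_5 and 11.32, 11.36, 11.08, 11.05 and 11.81 on CBP_SC_1 to CBP_SC_5. In enrichment Rps6 was 11.11, 11.20 and 11.81 in wild type and 11.34, 11.18 and 11.78 in cbp+/-. Its highest arrays were number 5 in standard cages and number 3 in enrichment, and its housing difference was -0.036 (SE 0.20) in wild type and 0.11 (SE 0.20) in cbp+/-. The stalk proteins Rplp1 and Rplp2, which bind to Rplp0, had other patterns. Rplp1 was highest on number 4 in both genotypes (11.63 and 11.65) and lowest on WT_EE_3 (10.71), where most members were high. Rplp2 was highest on WT_SC_5 (7.43) in wild type and on CBP_SC_3 (7.29) in cbp+/-.

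The range over all arrays was 1.58 for Rplp0, 1.42 for Rpsa and 1.67 (3.18-fold) for Rpl24, the widest of the members. It was 0.18 for Rpl39l, the narrowest.

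**Figure D3:**
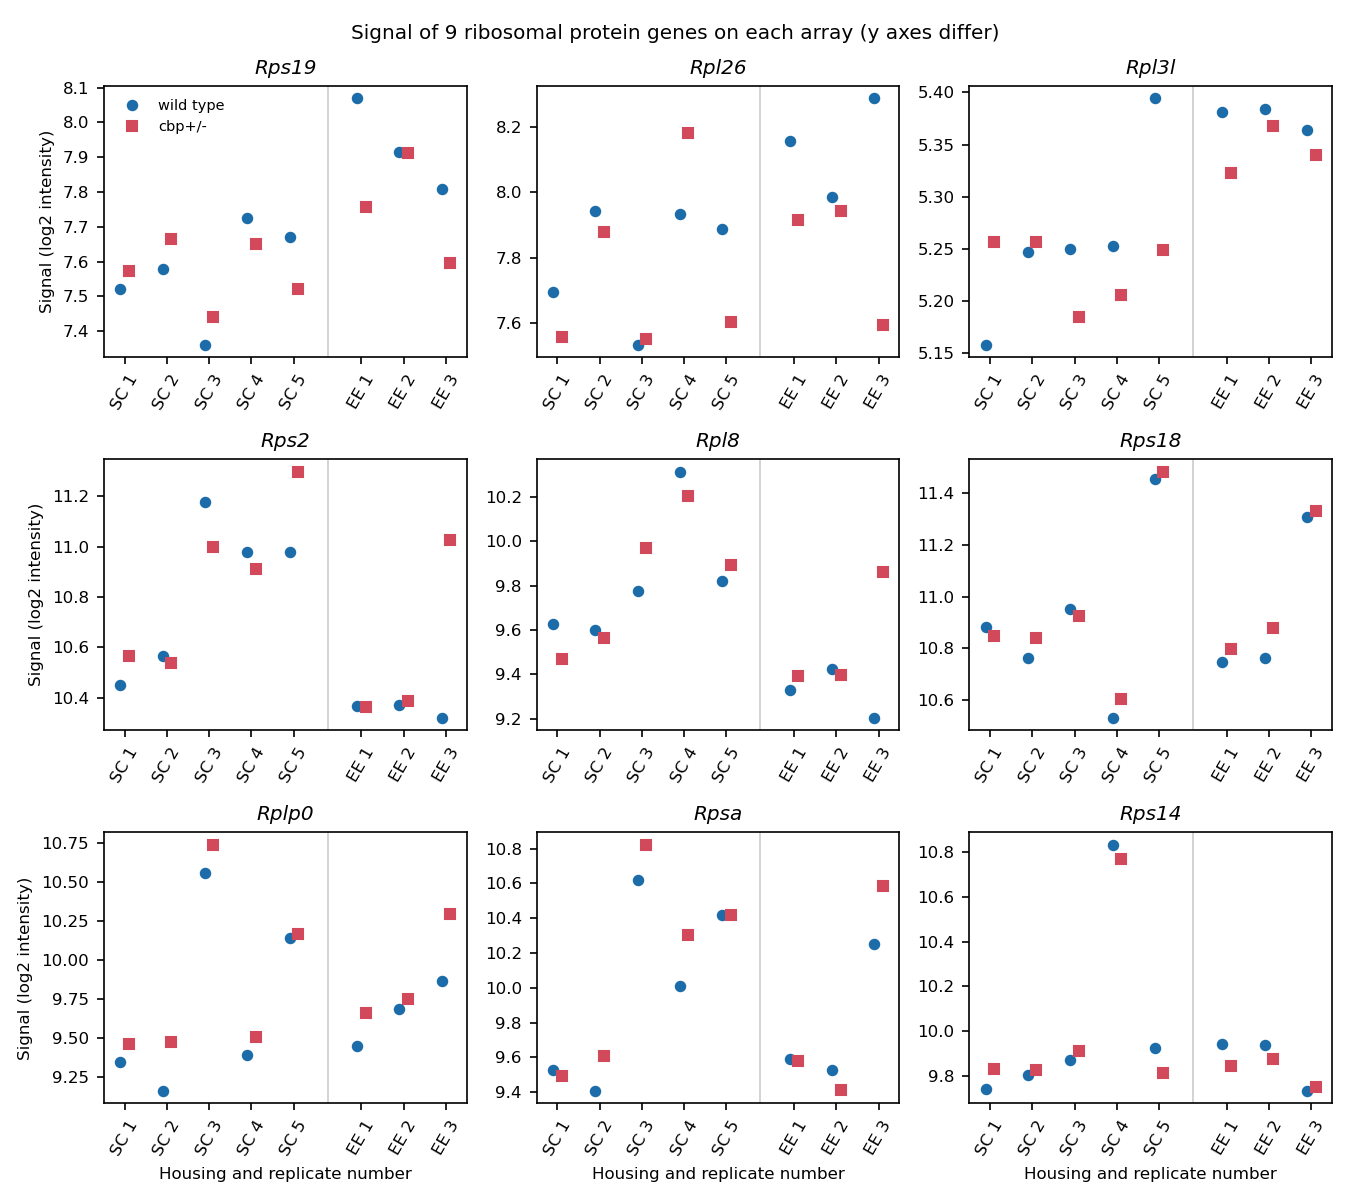
Log2 signal (y axis, with a scale of its own in each panel) of 9 ribosomal protein genes on each array, by housing and replicate number (x axis), with circles for wild type and squares for cbp+/-. In Rps14 the number 4 pair of the standard cages stands apart from the other 14 arrays, in Rps18, Rplp0 and Rpsa several pairs stand apart, and Rps19 is higher on all 3 wild-type enrichment arrays (7.81 to 8.07) than on the wild-type standard-cage arrays (7.36 to 7.73).

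Splitting each gene's sum of squares showed how much lay between replicate numbers. The difference between same-numbered pairs within a housing took a median of 83.4% for the members, housing 1.92% and genotype within housing 3.11%. The pairs took over 50% in 54 of 61 genes (88.5%), against 56.0% of all probe sets. They did so in 88.0% of the rest of the brightest 10% and in 89.6% of the mitochondrial ribosome genes. For all probe sets tested the medians were 54.3%, 9.21% and 6.82%, and for the rest of the brightest 10% the share between pairs was 73.0%. The pairs carry 6 of 15 degrees of freedom, so a large share is partly built in. A moderated F test of the difference between pairs, with limma and Benjamini-Hochberg adjustment over all probe sets (adjusted p under 0.05), called 45 of the 61 members, against a background of 30.5%. Leaving out 1 array at a time gave 32 to 52 members, the fewest without WT_SC_4 or without CBP_SC_4. The share of all probe sets called in those fits is not given here, so a change in the count cannot be assigned to the members.

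By role, 17 of the 21 canonical small-subunit genes, 26 of the 34 canonical large-subunit genes and 2 of the 6 paralogs were called in that test. Rps18, Rps14, Rplp0 and Rpl37a had the lowest adjusted p of limma's F test, 0.000194 each. Among the 16 genes not called were Rpl3l (adjusted p of the F test 0.802), Rps19 (0.106), Rpl26 (0.169) and the stalk protein gene Rplp1 (0.109). Both Rps19 and Rpl26 are also among the genes with the largest housing differences.

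**Figure D4:**
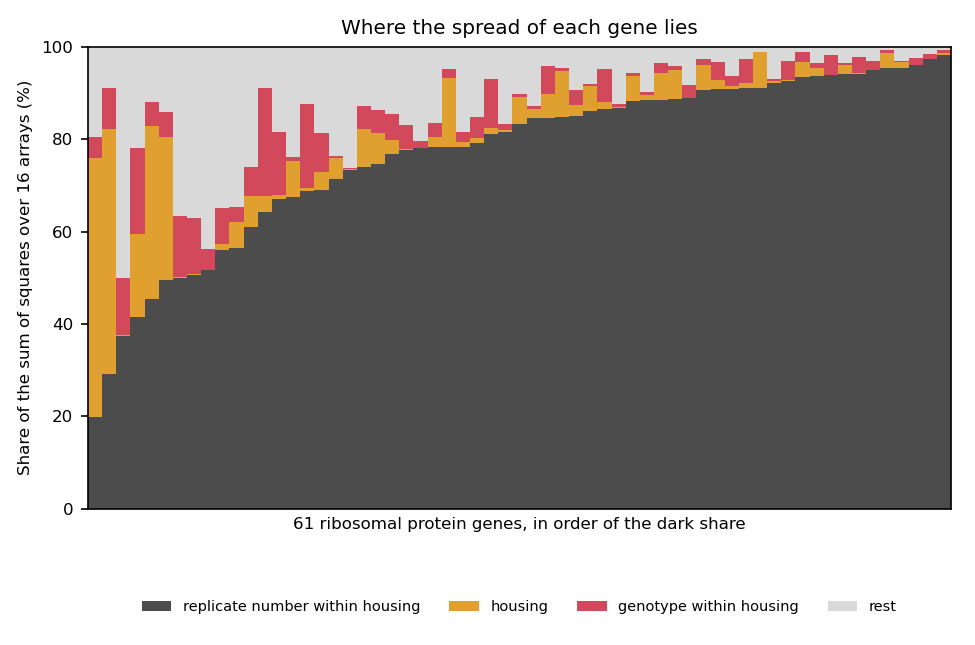
Share of each gene's sum of squares over the 16 arrays (y axis, percent) for the 61 genes, ordered along the x axis by the share between replicate numbers within a housing (dark). The dark share has a median of 83.4% and reaches 98.3% for Rps18, while Rpl3l, with 19.9%, is the lowest.

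Enrichment against standard cage in wild type did not move any member past the threshold. limma with Benjamini-Hochberg adjustment called 0 of 61 genes, as it called 0 of all 21780 probe sets (0%). The median difference of the members was -0.047, against 0.029 for all probe sets and -0.086 for the rest of the brightest 10%. It was below 0 in 42 genes, where 41.6% of all probe sets were below 0, and above 0 in 19, where 58.4% were. This split depended on the scaling: after quantile normalization 34 were above 0 and 27 below with a median of 0.016, and centred on the brightest 10% of probe sets 35 and 26 with a median of 0.023. All probe sets had a median of 0.00026 after quantile normalization and 0.099 with that centring. The median of the members thus stayed below that of all probe sets when centred, and lay above it after quantile normalization. With the replicate number as a block 44 were above 0, with a median of 0.037, although the numbers did not pair the housings. The share of all probe sets above 0 in that fit is not given here. The median was -0.17 without WT_EE_3 and 0.072 without WT_EE_1.

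At an unadjusted p under 0.05, 3 members were higher in wild-type enrichment, Rps19, Rpl3l and Rpl26, where 14.1% of all probe sets were, and 2 were lower, Rpl8 and Rps2, where 3.72% were. Both shares of members (4.92% and 3.28%) were below the background. In 2 genes, Rps19 and Rpl26, all 3 enrichment arrays lay above all 5 standard-cage arrays, as in 9.16% of all probe sets. In 2, Rps2 and Rpl8, all 3 lay below, as in 2% of all probe sets.

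Rps19, a small-subunit protein whose loss causes Diamond-Blackfan anaemia in people, had the largest difference in relation to its error. Its signals were 7.52, 7.58, 7.36, 7.73 and 7.67 in wild-type standard cages and 8.07, 7.92 and 7.81 in wild-type enrichment, without overlap. The difference was 0.36 (SE 0.091), or 1.28-fold, with an unadjusted p of 0.00144 and an adjusted p of 0.123 by limma. The direction was the same in each alternative analysis, with adjusted p from 0.00102 with array weights to 0.669 without dim probe sets. Rps19 was represented by 1 probe set.

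Rpl26, a large-subunit protein at the exit of the peptide tunnel, had signals of 7.70, 7.94, 7.53, 7.93 and 7.89 in wild-type standard cages and 8.16, 7.99 and 8.29 in enrichment. The difference was 0.34 (SE 0.15), with an adjusted p of 0.243 by limma and 0.108 to 0.697 in the alternatives. Rpl26 was higher on all 3 enrichment arrays, though WT_EE_2 lay only slightly above WT_SC_2.

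Rps2, a small-subunit protein at the messenger RNA entrance, differed the other way. Its signals were 10.45, 10.57, 11.18, 10.98 and 10.98 in wild-type standard cages and 10.37, 10.37 and 10.32 in enrichment. The difference was -0.48 (SE 0.20), with an adjusted p of 0.240 by limma and 0.0987 to 0.697 in the alternatives. Its other 2 probe sets differed in the same direction, by -0.38 in the median. The standard-cage arrays spread over a far wider range than the 3 enrichment arrays, and the 2 lowest of them, numbers 1 and 2, lay nearest to the enrichment values.

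Rpl8, a large-subunit protein near the peptidyl transferase centre, had signals of 9.63, 9.60, 9.77, 10.31 and 9.82 in wild-type standard cages and 9.33, 9.42 and 9.20 in enrichment. The difference was -0.51 (SE 0.18), with an adjusted p of 0.190 by limma and 0.0229 to 0.697 in the alternatives, the lowest among only the arrays numbered 1 and 2, a set found by clustering the arrays. All 3 enrichment arrays of Rpl8 were below all standard-cage arrays, and WT_SC_4 was the highest. Rpl24, a protein at the bridge between the subunits, had a difference of similar size, -0.54, with a far larger error (SE 0.35), and WT_EE_3 (10.54) lay among its standard-cage values.

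The other genes named for this comparison had smaller differences in relation to their errors. Rpl30 (0.14, SE 0.11), Rps13 (0.14, SE 0.11), Rpl32l (0.11, SE 0.11), Rpl10l (0.14, SE 0.14) and Rpl29 (0.10, SE 0.12) were above 0. Rpl21 (-0.19, SE 0.14), Rps15 (-0.18, SE 0.17), Rps3a1 (-0.22, SE 0.21), Rpl13 (-0.22, SE 0.21) and Rps28 (-0.19, SE 0.18) were below. None of these 10 genes had an unadjusted p under 0.05. By subunit, the median was -0.13 over 21 canonical small-subunit genes (5 above 0) and -0.044 over 34 canonical large-subunit genes (10 above 0).

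**Figure D5:**
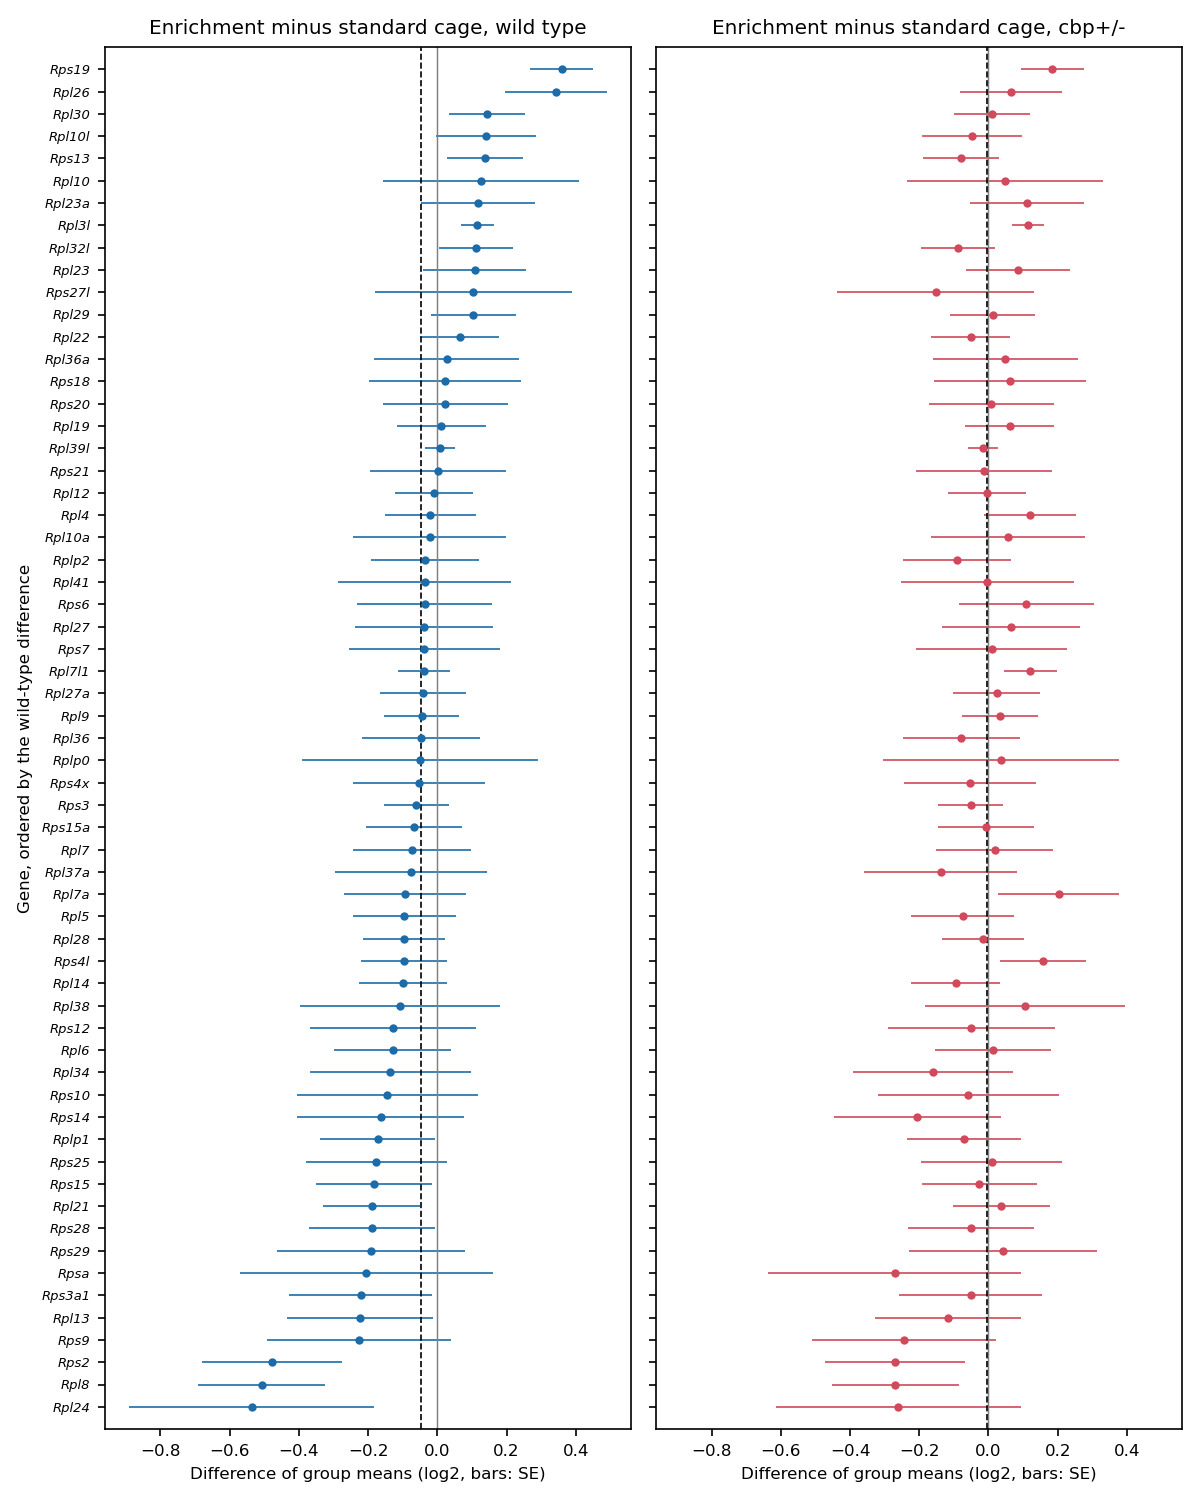
Difference between enrichment and standard cage (x axis, log2, points with bars of 1 SE) for each of the 61 genes (y axis), in wild type on the left and cbp+/- on the right, ordered by the wild-type difference, with a dashed line at the median of the genes. Rps19 and Rpl26 are at the top and Rps2, Rpl8 and Rpl24 at the bottom in wild type, and 0 genes pass the adjusted threshold in either genotype.

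In cbp+/- mice the members lay close to 0 in the median. The difference between enrichment and standard cage had a median of -0.0037 over the 61 genes, against 0.0096 over all probe sets, with 29 genes above 0 and 32 below. In the same comparison 55% of all probe sets were above 0. limma with Benjamini-Hochberg adjustment called 0 members (0% of all probe sets). At an unadjusted p under 0.05, 1 member was higher, Rpl3l, where 1.54% of all probe sets were, and 0 were lower, where 1.29% were.

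Rpl3l, the paralog of Rpl3 known from heart and skeletal muscle, had a signal in the dim range. It was 5.26, 5.26, 5.18, 5.21 and 5.25 in cbp+/- standard cages and 5.32, 5.37 and 5.34 in enrichment, without overlap, as in 1.64% of all probe sets, while 0 members had all 3 enrichment arrays below, as in 1.25%. The difference was 0.11 (SE 0.046), with an adjusted p of 0.999 by limma. In wild type Rpl3l was 5.16, 5.25, 5.25, 5.25 and 5.39 in standard cages and 5.38, 5.38 and 5.36 in enrichment, a difference of 0.12 (SE 0.046, adjusted p by limma 0.222, and 0.00591 with array weights to 0.964 after quantile normalization). WT_SC_5 lay above all 3 enrichment arrays. After quantile normalization the wild-type difference was 0.011.

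For the genes that stood apart in wild type, the cbp+/- values were as follows. Rps19 was 7.57, 7.66, 7.44, 7.65 and 7.52 in standard cages and 7.76, 7.91 and 7.60 in enrichment, a difference of 0.18 (SE 0.091, adjusted p by limma 0.999). CBP_EE_1 and CBP_EE_2 lay above all standard-cage arrays, and CBP_EE_3 lay among them. Rpl26 differed by 0.065 (SE 0.15), Rps2 by -0.27 (SE 0.20) and Rpl8 by -0.27 (SE 0.18). For Rps2 and Rpl8 the first 2 enrichment arrays (10.37 and 10.39, 9.39 and 9.40) were below all standard-cage arrays. CBP_EE_3 (11.03 and 9.86) lay within the standard-cage range of both genes.

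cbp+/- and wild type differed little in the members in standard cages. The median difference was -0.0090, against 0.0044 for all probe sets, with 27 genes above 0 and 34 below, where 46.3% of all probe sets were below. limma with Benjamini-Hochberg adjustment called 0 members (0% of all probe sets), and 0 had an unadjusted p under 0.05 (0.5% higher and 0.487% lower among all). The largest differences in relation to their errors were 0.13 (SE 0.13) for Rpl10l and -0.11 (SE 0.098) for Rpl12. In 4 genes, Rplp0, Rpl6, Rpl37a and Rps13, the cbp+/- array was higher in 5 of 5 same-numbered pairs, as in 3.91% of all probe sets, and in 0 genes lower, as in 3.58%.

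In enrichment the cbp+/- arrays were higher than wild type in 36 of 61 genes, where 41.7% of all probe sets were. The median difference was 0.033, against -0.020 for all probe sets and 0.046 for the rest of the brightest 10%. This split moved with the scaling too, with 25 genes below 0 (58.3% of all) in the analysis as fitted, 32 above 0 after quantile normalization and 29 centred on the brightest 10% of probe sets. All probe sets had a median of -0.0031 after quantile normalization and -0.062 with that centring. The median of the members was -0.072 without CBP_EE_3 and 0.17 without WT_EE_3. limma with Benjamini-Hochberg adjustment called 0 members (0% of all probe sets), and 0 had an unadjusted p under 0.05 (1.16% higher and 4.07% lower among all). Rpl7l1 (0.17, SE 0.085), Rps4l (0.24, SE 0.14) and Rpl7a (0.24, SE 0.20) were at one end, and Rpl26 (-0.32, SE 0.16), Rps19 (-0.18, SE 0.10), Rpl32l (-0.16, SE 0.12) and Rps13 (-0.16, SE 0.12) at the other. The cbp+/- array was higher in 3 of 3 pairs in 14 genes (11.6% of all probe sets) and lower in 5 (18.9%).

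Because same-numbered arrays of both genotypes varied together, the genotype comparison was also made with the pair as a block. It called 0 members by limma with Benjamini-Hochberg adjustment in each housing (0% of all probe sets). At an unadjusted p under 0.05 it gave 1 member in standard cages (4.39% of all) and 11 in enrichment (13% of all), 9 of them higher and 2 lower in cbp+/-. The lower ones were Rpl26 and Rps19. The higher ones included Rplp0 (0.24, SE 0.075), Rpl6 (0.19, SE 0.066), Rpl10a (0.15, SE 0.061), Rpl7a and Rps29. Their lowest adjusted p by limma in enrichment was 0.305. For the interaction the block gave 4 members at an unadjusted p under 0.05 (6.62% of all), Rpl7a, Rpl7l1, Rps29 and Rps4l, and 0 called.

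Rpl6, a large-subunit protein, and Rplp0 were the 2 members in which cbp+/- was higher in all 8 pairs, as in 1.02% of all probe sets, and 0 members were lower in all 8, as in 0.927%. Rpl6 was 9.87, 9.93, 10.05, 10.28 and 10.39 on WT_SC_1 to WT_SC_5 and 9.88, 9.98, 10.08, 10.30 and 10.49 on CBP_SC_1 to CBP_SC_5. In enrichment it ran from 9.66 on WT_EE_1 to 10.27 on WT_EE_3, and was 10.05, 10.01 and 10.41 in cbp+/-. Within most pairs Rpl6 differed by far less than between numbers, and the group means overlapped within their SD.

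The interaction, the cbp+/- housing difference minus that of wild type, had a median of 0.040 over the members, against -0.019 over all probe sets. It was above 0 in 37 genes, where 42.5% of all probe sets were. For the rest of the brightest 10% the median was 0.057, with 69.2% above 0. The split of the members depended on the scaling. After quantile normalization 31 were above 0 and 30 below. Centred on the brightest 10% of probe sets, 29 were above 0 and 32 below. All probe sets had a median of -0.0018 after quantile normalization and -0.068 with that centring. The median of the members was -0.059 without CBP_EE_3 and 0.19 without WT_EE_3. limma with Benjamini-Hochberg adjustment called 0 members (0% of all probe sets), and 0 had an unadjusted p under 0.05 (0.372% higher and 2.29% lower among all). The interaction was -0.18 (SE 0.13) for Rps19 and -0.28 (SE 0.21) for Rpl26, the genes higher in wild-type enrichment, and 0.25 (SE 0.18) for Rps4l and 0.30 (SE 0.25) for Rpl7a. No member's housing difference was shown to differ between the genotypes, which does not show that they were alike.

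The 6 paralogs had a median range over the arrays of 0.52, against 0.83 for the canonical genes and 0.51 for all probe sets tested. Their ranges ran from 0.18 for Rpl39l to 1.18 for Rps27l, and most paralogs gave dim signals. Rpl7l1, which takes part in building the large subunit, was 7.96, 8.05, 7.86, 8.03 and 8.18 in wild-type standard cages and 7.97, 8.01 and 7.95 in enrichment. In cbp+/- it was 7.97, 8.03, 7.94, 7.93 and 8.24 in standard cages and 8.22, 8.10 and 8.11 in enrichment. Its housing difference was -0.039 (SE 0.076) in wild type and 0.12 (SE 0.076) in cbp+/-. Rps27l, known as a p53 target, followed the number 5 pattern with a range of 1.18. Rpl39l, best known from testis, stayed between 4.76 and 4.95 on all arrays.

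Several probe sets of 1 gene mostly pointed the same way. Of the members, 39 had more than 1 probe set, up to 13. Of their 155 other probe sets, 124 had the sign of the brightest one in wild-type housing and 127 in cbp+/- housing. The median of the others had the opposite sign in 9 and 6 genes, for example in Rplp0 in wild type (-0.051 for the brightest, 0.10 for the other). Ribosomal protein genes have many processed pseudogenes, and a probe set may read several near-identical copies, so values for a single gene of this family are uncertain in that respect.

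The genes around the ribosome were described from lists. Among 17 other ribosome and terminal oligopyrimidine genes, the median wild-type housing difference was -0.039 (8 above 0), with Eef2, the translocation factor, at -0.29 (SE 0.12) and Npm1, a nucleolar chaperone, at -0.39 (SE 0.20). Among 32 ribosome biogenesis genes it was -0.048 (11 above 0), with Nol6 at -0.45 (SE 0.23) and Sbds, which frees new large subunits, at 0.24 (SE 0.14). Among 17 genes that control ribosomal protein synthesis it was -0.062 (5 above 0), with Tsc1, an inhibitor of mTOR signalling, at -0.24 (SE 0.072) and Rptor, a subunit of mTOR complex 1, at -0.40 (SE 0.13). limma with Benjamini-Hochberg adjustment called 0 genes of these lists in either genotype, where 0% of all probe sets were called. The adjusted p by limma was 0.154 for Tsc1 and 0.160 for Rptor. In cbp+/- Rptor was at -0.29 (SE 0.13) and Tsc2, the partner of Tsc1, at -0.29 (SE 0.13).

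The mitochondrial ribosome is given beside the cytosolic one for the genotype comparison. In enrichment 62 of its 77 genes were higher in cbp+/-, with a median of 0.11, against 36 of 61 and 0.033 for the cytosolic genes and a background of 41.7% above 0. The shift was not particular to this list. In enrichment 26 of the 32 biogenesis genes were also higher, with a median of 0.092, and 64.8% of the rest of the brightest 10%, with a median of 0.046. In standard cages 59 of the 77 were higher, with a median of 0.038, against 27 of 61 and -0.0090 and a background of 53.7%. There 22 of the 32 biogenesis genes were higher, with a median of 0.038, and 44.7% of the rest of the brightest 10%. limma with Benjamini-Hochberg adjustment called 0 of the 77 in either housing, and at an unadjusted p under 0.05, 4 were higher in enrichment (1.16% of all probe sets) and 2 in standard cages (0.5% of all). The differences between these lists were not tested.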

How the data were processed

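Hippocampal RNA was read on 16 single-colour arrays, grouped by their titles. The authors deposited 1 intensity per probe set and array, linear by its values. GeneSpring GX was used per the labels' protocols, with RMA listed per the submitters' processing notes. Software versions, the test used and a possible baseline step were not given in the sources used here. RMA pulls the arrays towards a common distribution, so changes are relative to the rest of an array. The deposited arrays still differed in spread. The interquartile range of the log2 signals ran from 2.22 on WT_EE_1 to 2.65 on CBP_SC_3. The median intensity was 85.46 and 76.7 on these 2 arrays.

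Of 28815 deposited probe sets, the 21780 with exactly 1 symbol in the platform annotation were tested. Log2 of the deposited intensity was fitted in R 4.3.3 with limma 3.58.1 (lmFit, eBayes), with 4 group means over all 16 arrays (12 residual degrees of freedom) and Benjamini-Hochberg adjustment over all probe sets at a threshold of 0.05. Each change is a difference of log2 group means with its moderated SE. The number of arrays limits the precision. The code was tested on simulated data. No set test was run.

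The members and lists were chosen with earlier results of these data known. Genes were named by the size of the moderated t (up to 8 per direction for housing, up to 4 for genotype and the interaction), by signal and residual SD, and always Rplp0, Rplp1, Rplp2, Rpsa, Rps6 and the paralogs. Genes named for the array on which they were highest, or for their order over pairs, were chosen after their values were seen.

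Pairing was checked by correlating deviations from the group means. Wild-type and cbp+/- arrays of the same housing and number correlated in all 8 pairs (0.26 to 0.77), 6 of them best with their own number and the second standard-cage and first enrichment pairs better with another, so the number was taken to pair genotypes, while numbers did not pair housings (-0.39 to 0.37). Alternatives were quantile normalization, centring on the brightest 10% of probe sets, leaving out dim probe sets, the mean of all probe sets of a gene, canonical members only, array weights, array sets from clustering as a block and within sets, the replicate block, only the groups compared, and leaving out each array. The pair block within housing, the F test between pairs with its alternatives and a second clustering (Ward) were added after seeing the data. Promoter windows are from RefSeq (GRCm38.p6), matched by symbol.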

Additional observations from a re-analysis of the deposited data

Results flagged for a closer look

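In groups of 5 arrays, some members had 1 array far from the others, by a gap rule that chance meets in about 5% of groups. It was applied to the standard-cage arrays of each genotype for 40 named genes and for the level of the family, 82 groups in all. It was met in 5 groups, near the share that chance gives. Rps14 was 10.83 on WT_SC_4, with the next array at 9.92, and 10.77 on CBP_SC_4, with the next at 9.91. Rps4x was 9.91 on WT_SC_4, with the next at 9.21, and 9.64 on CBP_SC_4, with the next at 9.16. Rpl39l was 4.95 on WT_SC_4, with the next at 4.83. All 5 lie on number 4 of the standard cages. Same-numbered arrays of both genotypes varied together, so the 2 flags of Rps14 are not separate, nor are those of Rps4x. Rpl39l was dim, at percentile 6.05 of the signals.

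Rpl7l1 had all enrichment arrays on opposite sides of the standard-cage mean in the 2 genotypes, lower in wild type and higher in cbp+/-. The interaction was 0.16 (SE 0.11), with an adjusted p of 1.00 and an unadjusted p of 0.159 by limma.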

How the results depend on the processing

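The medians of the 61 genes kept within 1 SD of the array level in each of the alternatives and each left-out array. The sign of the wild-type housing median depended on both. The other medians also changed sign over the left-out arrays. They ran from -0.10 to 0.042 for cbp+/- housing and from -0.060 to 0.041 for genotype in standard cages. For genotype in enrichment the range was -0.072 to 0.17, and for the interaction -0.059 to 0.19. The count called for housing or genotype was 0 in the main analysis and in each left-out array. It was 3 in wild-type housing, 1 in cbp+/- housing and 2 for genotype in enrichment with array weights, where 24.1%, 4.77% and 11.4% of all probe sets were called. It was 2 in wild-type housing within the first array set (8.59% of all probe sets) and 20 (9 higher, 11 lower) within the first Ward set, numbers 1 and 2 of each group, where 29.9% of all probe sets were called. Except in that Ward set, the share of members called was below the share of all probe sets. The count of the F test between pairs was 32 to 52 without 1 array, with the share of all probe sets in those fits not given here. The replicate block changed no call, and neither did the pair block within housing. Signs turned for some named genes, and the cause was not tested. In wild-type housing these were Rpl21 on the mean of all probe sets (0.052), Rpl13 with the replicate block (0.011), array weights (0.082) and within the first Ward set (0.17), and Rpl30 with array sets as a block (-0.0016), array weights (-0.0022) and within the first Ward set (-0.070). Rps13 turned with array sets as a block (-0.053) and within the first set (-0.058) and first Ward set (-0.060), and Rpl32l with array sets as a block (-0.022) and within the first set (-0.035). In cbp+/- housing Rpl4 turned with Ward sets as a block (-0.017), array weights (-0.016) and within the first Ward set (-0.041), and Rps14 with Ward sets as a block (0.0037) and within the first Ward set (0.033). Rps9 turned with the replicate block (0.033) and within the first Ward set (0.039), and Rpl32l with array weights (0.060) and within the first Ward set (0.035). Without 1 array, wild-type Rps13 ranged from -0.055 to 0.27, Rpl32l from -0.056 to 0.20 and Rps3a1 from -0.44 to 0.0067, and cbp+/- Rpl14 from -0.25 to 0.011 and Rpl23a from -0.021 to 0.20. Groups of 3 and the spread between numbers, with a median residual SD of 0.25 for the members against 0.13 for all probe sets, limit what these comparisons can detect.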
